A study of Mus musculus with 6 samples.

Results

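Genomic imprinting leaves a gene active mainly from the copy inherited from the mother or mainly from the copy inherited from the father. The imprinted growth genes described here are 10 genes out of the 54532 in the deposited count table, chosen by symbol for their parental class and their place in growth control. Of these, 4 are maternally expressed (H19, Meg3, Rian and Grb10) and 6 paternally expressed (Igf2, Dlk1, Plagl1, Peg3, Ndn and Mest). Parental class is background knowledge about the mouse, since gene counts carry no information on the allele.

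RNA was sequenced from 3 female and 3 male wild-type cultures labelled MAEC, for mouse aortic endothelial cells. All were untreated, were fed F-12 medium supplemented with heparin, serum and growth factors for endothelium, and gave poly-A selected libraries. Strain, age and the number of animals are not in the labels. Whether a sex is represented by several animals or by repeat dishes is not stated either, so every p-value reflects the spread between these libraries, which may be technical. Totals ran from 17410996 to 22993574 counts per library.

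Several rules of imprinted loci bear on the values below. At a cluster, methylation placed in the egg or the sperm marks a control region, and neighbouring genes are then read from opposite parental copies: H19 from the maternal and Igf2 from the paternal chromosome, Meg3 and Rian from the maternal and Dlk1 from the paternal. Paternally expressed genes tend to promote growth of the embryo and placenta and maternally expressed genes to restrain it. In mouse tissues many of these genes are expressed strongly before and around birth and much less afterwards.

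Promoter windows are shown for 5 of the members called below, to give the sequence context of their starts, and are not the control regions of the clusters. Methylation was not measured here. These are the 250 bases before the start site in the GRCm38.p6 build, read 5′ to 3′ on the gene's own strand, with cytosine-guanine (CG) pairs in capitals. Grb10 is chr11:12037421-12037670 (minus strand, the upstream start of 2 listed), Plagl1 chr10:13090582-13090831 (plus), Meg3 chr12:109540746-109540995 (plus, the upstream start of 2), Dlk1 chr12:109452573-109452822 (plus) and Peg3 chr7:6730420-6730669 (minus).
Grb10: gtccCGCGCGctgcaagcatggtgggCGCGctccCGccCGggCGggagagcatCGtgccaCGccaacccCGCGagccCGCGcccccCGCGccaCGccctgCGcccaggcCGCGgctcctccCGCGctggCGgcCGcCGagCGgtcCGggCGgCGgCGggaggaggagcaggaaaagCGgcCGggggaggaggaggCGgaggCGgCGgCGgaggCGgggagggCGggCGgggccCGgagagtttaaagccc
Plagl1: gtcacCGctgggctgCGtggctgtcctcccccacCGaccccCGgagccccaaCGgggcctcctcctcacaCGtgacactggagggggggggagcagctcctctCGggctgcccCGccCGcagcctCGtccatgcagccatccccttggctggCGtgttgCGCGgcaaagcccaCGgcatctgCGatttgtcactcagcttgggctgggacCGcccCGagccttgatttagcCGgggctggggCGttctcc
Meg3: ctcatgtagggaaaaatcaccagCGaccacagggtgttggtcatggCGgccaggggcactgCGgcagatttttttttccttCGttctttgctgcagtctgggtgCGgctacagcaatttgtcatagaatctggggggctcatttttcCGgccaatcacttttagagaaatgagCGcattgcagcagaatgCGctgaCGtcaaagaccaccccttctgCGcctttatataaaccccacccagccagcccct
Dlk1: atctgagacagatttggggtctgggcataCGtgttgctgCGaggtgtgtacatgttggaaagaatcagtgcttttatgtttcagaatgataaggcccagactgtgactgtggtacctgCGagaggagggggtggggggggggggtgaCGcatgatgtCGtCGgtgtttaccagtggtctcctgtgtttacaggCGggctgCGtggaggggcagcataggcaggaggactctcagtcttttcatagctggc
Peg3: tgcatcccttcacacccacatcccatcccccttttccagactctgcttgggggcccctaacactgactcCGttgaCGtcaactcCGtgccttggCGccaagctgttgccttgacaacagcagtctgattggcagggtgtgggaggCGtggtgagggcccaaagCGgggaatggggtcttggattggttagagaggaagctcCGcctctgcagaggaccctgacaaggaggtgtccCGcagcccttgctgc
These windows hold 40 CG pairs for Grb10, 19 for Plagl1, 10 for Meg3, 8 for Dlk1 and 8 for Peg3, where the 32851 promoter windows of the table have a median of 6 and quartiles of 2 and 16. The other listed start has 8 CG pairs for Grb10 and 0 for Meg3, and the window of Rian, not printed, has 0. The letters TGCCGC, the motif bound by the imprint-keeping zinc finger protein ZFP57, were searched on both strands and occur in 8.68% of all windows. Among the members they were found in the windows of Plagl1 and Meg3 shown here and in those of 2 overlapping Mest starts. The letters CCATNTT, the core motif of the factor YY1, occur in 12.4% of all windows. Of the members' windows only those of the downstream Grb10 start and of an Igf2 start hold them, neither of which holds TGCCGC. A match describes letters in a window and not a bound site.

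H19 has no promoter entry, and its best known small product is the microRNA miR-675, shown here because it is made from the member with the largest difference. Both mature arms are RefSeq sequences from the minus strand in GRCm38.p6, chr7:142577112-142577133 for the 5p arm and chr7:142577078-142577099 for the 3p arm, with the seed, bases 2 to 8, in capitals.
mmu-miR-675-5p: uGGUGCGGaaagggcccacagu
mmu-miR-675-3p: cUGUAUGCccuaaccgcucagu
Mature microRNAs are not measured by poly-A selected libraries of this kind, and the table's entry for the miR-675 gene stood at 0 counts in every library. That entry shares 84 bases with exons of H19 on the same strand. How reads from shared exons were assigned is not stated, so the 0 does not show that its transcript was absent.

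The identity of the cells bears on all values. Of 12 endothelial markers, 4 (Cdh5, Tie1, Cldn5 and Robo4) had 0 counts in all 6 libraries and 11 stayed under 1 CPM (read counts relative to the TMM-scaled library size) or were at 0 throughout. Their summed level was 2.35 to 4.33 CPM in female libraries and 4.21 to 6.61 CPM in male ones. The 10 fibroblast markers summed to 7426 to 7922 CPM in female libraries and 5338 to 5836 CPM in male ones, the 7 smooth muscle markers to 117 to 120.4 CPM in female and 142 to 177 CPM in male, and the 6 adipocyte markers to 24.1 to 26.6 CPM in female and 44.4 to 55.9 CPM in male. Fibroblast markers went both ways, with Lum, Fbln1, Dcn and Pdgfra higher and Pdgfrb and Thy1 lower in female. The 7 mesothelial markers summed to 7.49 to 11.2 CPM in female and 2.08 to 3.99 CPM in male. Krt18, called higher in female, averaged 7.51 CPM there and made up most of the female sum, and Krt19 overlapped and was not called. Msln and Upk3b were too low to test. They had 0 counts in every female library, against 10, 1 and 6 counts for Msln and 1, 8 and 9 for Upk3b in male libraries. The 6 leukocyte markers summed to 2.82 to 4.11 CPM in female and 3.14 to 3.34 CPM in male. The part of these markers in the differences below was not tested, and in such bulk libraries fewer cells of a type and less RNA per cell cannot be told apart. Male replicate 3 stood apart, with correlations of log2 CPM down to 0.966 with the other male libraries, against at least 0.983 among female libraries. Xist and 4 Y-linked genes matched the labelled sex in every library.

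Most members differed between the sexes, and they did so in both directions. Across all genes, edgeR's quasi-likelihood test called 18.3% of the 14932 tested genes at a Benjamini-Hochberg adjusted p under 0.05, 9.68% higher and 8.62% lower in female. Of the 10 members 9 were tested, 6 rose in female, 1 fell and 2 were not called, while Igf2 was too low to test. All 9 tested members were over the count filter in every library of each sex. The maternally expressed genes H19, Meg3, Rian and Grb10 all rose, and the paternally expressed genes split into Dlk1 and Plagl1, which rose, Peg3, which fell, and Ndn and Mest, which were not called. Libraries of the sexes did not overlap for any of the 7 called members, and did not overlap for 35.9% of all tested genes. The median log2 fold change of female over male was 0.50 for the 9 tested members and -0.01 for all tested genes.

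**Figure D1:**
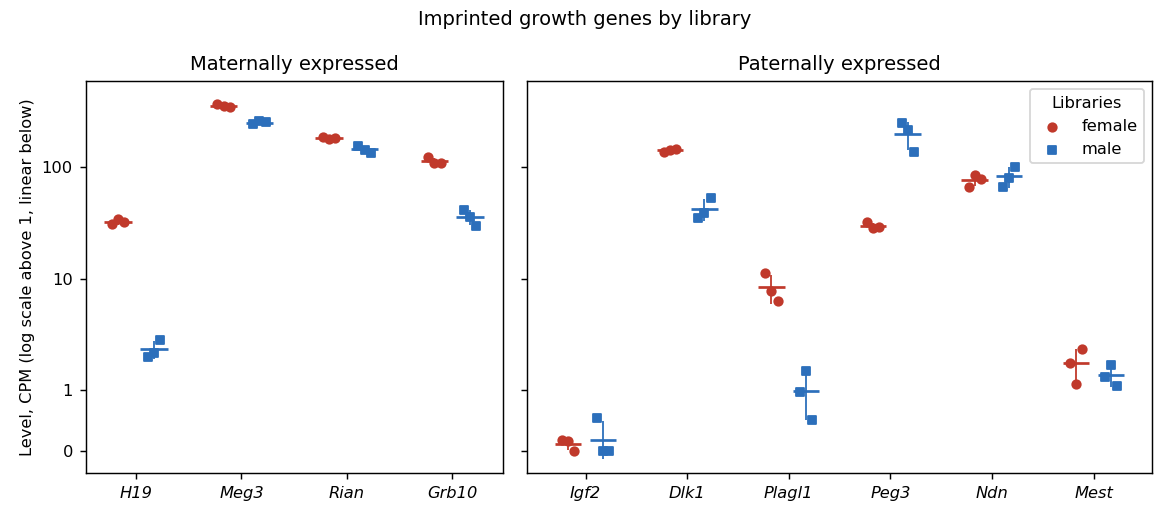
Level of each imprinted growth gene in CPM (log scale above 1, linear below) in 3 female (circles) and 3 male (squares) libraries, with horizontal bars at the mean and vertical bars of ± 1 SD. H19, Grb10, Dlk1 and Plagl1 lie higher in every female library and Peg3 in every male library, while Ndn, Mest and Igf2 overlap.

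H19, a long noncoding RNA that restrains growth of the mouse embryo, showed the largest change of the members. It lies on chromosome 7 (142575529 to 142578143, minus strand, GRCm38). Its level was 30.7, 34.2 and 32.0 CPM in female libraries, against 1.99, 2.12 and 2.79 CPM in male libraries. Every female library lay far above every male library, and the means of 32.3 ± 1.76 CPM in female and 2.30 ± 0.431 CPM in male (SD, n = 3 each) stood 14.0-fold apart. The log2 fold change was 3.82 ± 0.18 (SE, edgeR adjusted p = 8.87e-07), and 98.2% of tested genes had a change no larger in size. Male libraries were not empty of H19, with 41, 48 and 49 counts there. The microRNA entry shares 3.41% of the exon bases of H19.

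Igf2, the paternally expressed growth factor that shares enhancers with H19, was close to 0 in both sexes. It had 4, 3 and 0 counts in female libraries, against 11, 0 and 0 counts in male libraries. Taking 3 counts as the limit, a count of 0 allows 0.128 to 0.171 CPM per library, and the sexes overlapped. In the GENCODE M21 annotation 62.8% of the exon bases of Igf2 are shared with Gm49394, an overlapping gene on the same strand that had 0 counts in every library, and how reads from shared exons were assigned is not stated. The ratio of H19 to Igf2 counts was 168 (95% exact binomial interval 65.2 to 617) in female replicate 1 and 202 (68.9 to 984) in female replicate 2, against 3.73 (1.88 to 8.04) in male replicate 1. In the other libraries Igf2 was at 0, and the interval puts the ratio above 202 in female replicate 3, against 12.5 and 12.8 in male replicates 2 and 3. Such intervals and limits cover counting error only. Igf2os, the antisense transcript at Igf2, had 0 counts in female libraries and 1 count in male replicate 1.

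Grb10 encodes an adaptor protein that binds the insulin and IGF1 receptors and dampens their signal, and it is maternally expressed in most mouse tissues outside the brain. Its level was 124, 109 and 111 CPM in female libraries, against 41.3, 36.1 and 30.0 CPM in male libraries. The lowest female value stood well over the highest male value. Grb10 rose 3.20-fold (log2 fold change 1.68 ± 0.14, edgeR adjusted p = 2.51e-05). It spans 11930508 to 12038683 on chromosome 11 and shares no exon bases with another annotated gene.

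Meg3 and Rian, the maternally expressed noncoding RNAs of the Dlk1-Dio3 cluster on chromosome 12, rose by smaller steps. Meg3 had 374, 356 and 349 CPM in female libraries, against 244, 261 and 256 CPM in male libraries, and its rise was called (log2 fold change 0.50 ± 0.10, edgeR adjusted p = 0.00558). Rian, the host of a large group of small nucleolar RNAs, had 189.6, 179 and 183 CPM in female libraries, against 155, 145 and 136 CPM in male libraries. Its log2 fold change was 0.34 ± 0.10 (edgeR adjusted p = 0.0427), a call close to the threshold that was lost under 6 of 13 alternatives, with adjusted p up to 0.187 without female replicate 1. The sexes did not overlap for either gene, and the female mean was 1.42-fold the male mean for Meg3 and 1.27-fold for Rian.

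Dlk1, the paternally expressed gene of the same cluster, had the largest log2 fold change of the cluster. It encodes a membrane protein with EGF repeats, related to Notch ligands, that holds preadipocytes back from differentiation. Its level was 139, 144 and 146 CPM in female libraries, against 34.7, 38.9 and 52.7 CPM in male libraries. Female values were close together, while male replicate 3 stood over the other male libraries and still far under the female ones. Dlk1 rose 3.40-fold (log2 fold change 1.77 ± 0.16, edgeR adjusted p = 3.84e-05). Among the adipocyte markers Plin4 averaged 2.57 ± 0.367 CPM in female libraries and 31.3 ± 4.27 CPM in male ones, Fabp4 overlapped between the sexes, and Adipoq had at most 0.533 CPM in any library. The part of such markers in the Dlk1 difference was not tested.

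Within each library the genes of this cluster kept different proportions. Dlk1 counts were 0.372, 0.405 and 0.418 of those of Meg3 in female libraries, against 0.142, 0.149 and 0.206 in male libraries, so the ratio did not overlap between the sexes. Rian counts were 0.507, 0.502 and 0.524 of those of Meg3 in female libraries, against 0.633, 0.555 and 0.532 in male libraries, again without overlap. Mirg, a maternally expressed microRNA host at the far end of the cluster, lay at 0.0310 to 0.0343 of the Meg3 counts in female and 0.0319 to 0.0356 in male libraries, and these ranges overlapped. Mirg itself was not called (log2 fold change 0.45 ± 0.16, edgeR adjusted p = 0.0785). The paternally expressed Rtl1, a retrotransposon-derived gene needed in the placenta, averaged 1.44 ± 0.0243 CPM in female libraries and 0.993 ± 0.378 CPM in male ones. Dio3, the deiodinase gene that inactivates thyroid hormone, averaged 1.30 ± 0.184 CPM in female libraries and 0.683 ± 0.286 CPM in male ones. Neither was called (edgeR adjusted p = 0.437 and 0.218), and Dio3 was over the count filter in every female library but not in every male one.

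Plagl1, a zinc finger transcription factor gene also known as Zac1 that acts on other imprinted genes in mouse, was also higher in female. It had 11.1, 7.65 and 6.28 CPM in female libraries, against 0.969, 1.46 and 0.512 CPM in male libraries. The female libraries spread more than those of most other members, yet the lowest stood above the highest male library. The difference was 8.52-fold (log2 fold change 3.05 ± 0.37, edgeR adjusted p = 0.000297). Counts were 243, 136 and 147 in female libraries, against 20, 33 and 9 in male libraries, so the male level rests on few reads.

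Peg3 was the only member that fell. It encodes a large zinc finger protein expressed from the paternal copy, widely present in stem and progenitor cells of mouse tissues. Its level was 32.2, 28.3 and 29.0 CPM in female libraries, against 249, 217 and 139 CPM in male libraries. Male replicate 3 was the lowest male library, and it still exceeded every female library. The female mean was 6.75-fold lower (log2 fold change -2.76 ± 0.20, edgeR adjusted p = 1.36e-05), and without male replicate 3 the log2 fold change was -2.96.

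The tested neighbours of Peg3 on chromosome 7 were lower in female as well, in both parental classes. Usp29, a paternally expressed deubiquitinase gene that starts beside Peg3 and runs the other way, had 0.366, 0.788 and 0.0855 CPM in female libraries, against 2.57, 3.05 and 4.21 CPM in male libraries. Zim1, a maternally expressed zinc finger gene, had 0, 5 and 3 counts in female libraries, against 275, 307 and 114 counts in male libraries. The log2 fold change was -3.03 ± 0.58 for Usp29 (edgeR adjusted p = 0.00526) and -6.38 ± 0.57 for Zim1 (edgeR adjusted p = 4.47e-05), and the mean CPM of Zim1 was 81.5-fold lower in female. Both were over the count filter in every male library but not in every female one, so that being tested rested mainly on the sex in which they were higher. Without female replicate 2 the log2 fold change was -3.85 for Usp29 and -7.29 for Zim1, and without female replicate 1 it was -5.80 for Zim1. Counts of Zim1 were at most 0.00994 of those of Peg3 in female libraries, against 0.0466 to 0.0626 in male libraries. For Usp29 the ratio to Peg3 was 0.00295 to 0.0278 in female and 0.0103 to 0.0303 in male libraries, and these ranges overlapped. Zfp264 of the same cluster had 0 counts throughout.

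Ndn and Mest, both paternally expressed, showed no called difference. Ndn encodes necdin, a MAGE family protein known for holding back division of neurons, and it had 67.1, 85.5 and 78.8 CPM in female libraries, against 67.1, 81.2 and 102 CPM in male libraries. Its log2 fold change was -0.11 ± 0.16 (edgeR adjusted p = 0.708), and the sexes overlapped fully apart from the high value of male replicate 3. Mest, an enzyme of the hydrolase fold that marks mesoderm and growing fat, had 1.74, 1.13 and 2.31 CPM in female libraries, against 1.31, 1.68 and 1.08 CPM in male libraries. The estimate for Mest (log2 fold change 0.35 ± 0.39, edgeR adjusted p = 0.619) rests on 19 to 54 counts per library, and 23.1% of its exon bases lie opposite exons of Copg2. With standard errors of this size a p over the threshold does not show equal levels.

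The cluster of Ndn, the Prader-Willi region of the mouse, did not move together. Snrpn, which encodes a spliceosome protein, averaged 1.34 ± 0.215 CPM in female libraries and 4.55 ± 0.995 CPM in male ones and fell (log2 fold change -1.76 ± 0.29, edgeR adjusted p = 0.00204). Snhg14, the long host RNA that continues from it, averaged 1.79 ± 0.465 CPM in female libraries and 4.80 ± 1.43 CPM in male ones and fell (log2 fold change -1.42 ± 0.32, edgeR adjusted p = 0.0116), a call lost without female replicate 1 or 2 (adjusted p up to 0.0521). Mkrn3, Peg12 and Ube3a were tested and not called, with log2 fold changes of 0.75, 0.21 and -0.13, while Magel2 and Snurf had 0 counts in every library. All exon bases of Snurf are shared with Snrpn or Gm38393, and 27.3% of those of Snrpn are shared with Snurf or Gm38393. Of the neighbours of Mest, Copg2 was not called (log2 fold change 0.07 ± 0.12, edgeR adjusted p = 0.748) and Klf14 was at 0.

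**Figure D2:**
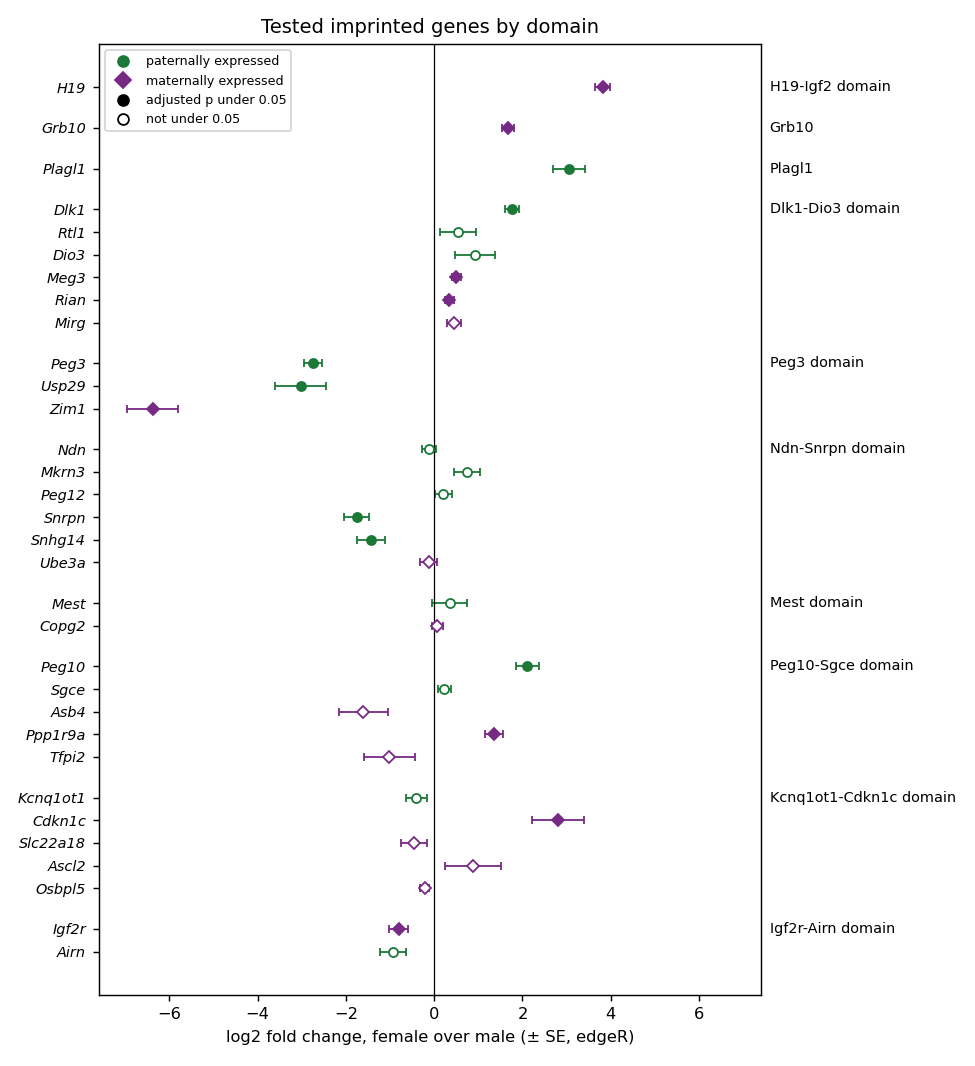
Log2 fold change of female over male (± SE, edgeR) for the tested genes of 10 imprinted loci, with circles for paternally and diamonds for maternally expressed genes and filled symbols for an adjusted p under 0.05. Dlk1, Meg3 and Rian have filled symbols right of 0, Peg3 has one left of 0, and the Ndn-Snrpn genes fall on both sides. Dio3 and Cdkn1c were over the count filter in every female library but not in every male one. Usp29, Zim1, Asb4 and Tfpi2 were over it in every male library but not in every female one, and Ascl2 in neither sex throughout.

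Levels were set in order per kilobase of the exon length in the table, since the members differ in length and raw CPM favours long RNAs such as Meg3 and Rian. That length is the union of all annotated exons, so a gene with many isoforms is understated. In female libraries Dlk1 stood first at 25.3 ± 0.652 CPM per kb, followed by Ndn at 20.9 ± 2.52 and Meg3 at 19.9 ± 0.702. H19 came next at 13.1 ± 0.716 CPM per kb, with Grb10 at 12.6 ± 0.900 and Rian at 10.1 ± 0.295, and Peg3 lay far below at 2.24 ± 0.157. Ndn and Meg3 overlapped in female libraries, as did H19 and Grb10, while the other neighbours in this order did not.

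Male libraries gave another order. Ndn stood first at 22.6 ± 4.75 CPM per kb, then Peg3 at 15.1 ± 4.24 and Meg3 at 14.0 ± 0.471, and these neighbours overlapped. Rian at 7.97 ± 0.506 CPM per kb and Dlk1 at 7.44 ± 1.66 overlapped too, and Grb10 followed at 3.94 ± 0.626 and H19 at 0.935 ± 0.175. Plagl1, Mest and Igf2 were the lowest members in each sex, with Plagl1 at 1.07 ± 0.318 CPM per kb in female and 0.125 ± 0.0605 in male libraries. Mest lay at 0.285 to 0.585 CPM per kb in female and 0.274 to 0.426 in male libraries.

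Summed CPM, not corrected for gene length, was higher in female for the maternally expressed members and lower for the paternally expressed ones. The 4 maternally expressed members together took 718, 679 and 674 CPM in female libraries, against 442, 444 and 425 CPM in male libraries. The 6 paternally expressed members took 251, 267 and 262 CPM in female libraries, against 354, 340 and 295 CPM in male libraries. Neither sum overlapped between the sexes, and no test was made of a sum over chosen genes. Peg3, 13.3 kb long, was the only paternally expressed member called lower in female. It supplied 10.6% to 12.8% of the paternal sum in female libraries, against 47.1% to 70.4% in male libraries. Dlk1 and Plagl1 were called higher in female, so the paternal sum does not describe a shift of the whole class.

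**Figure D3:**
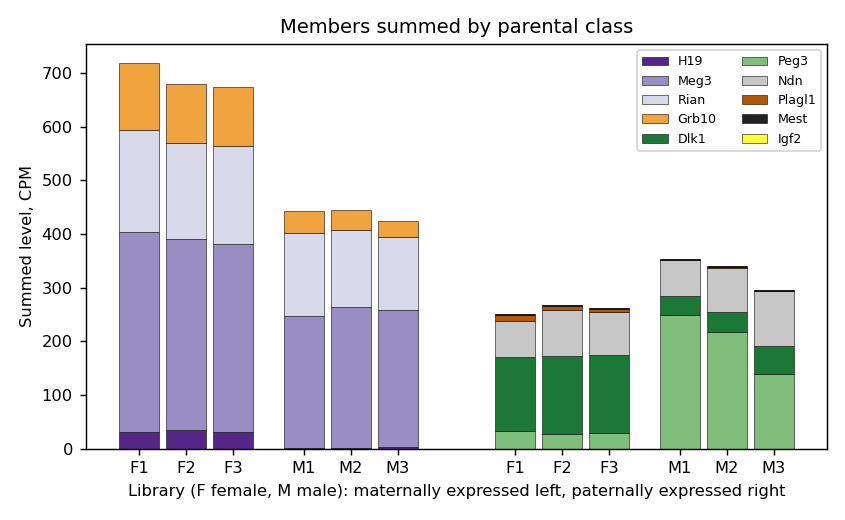
Summed CPM of the 4 maternally expressed (left) and 6 paternally expressed (right) members in each female (F) and male (M) library, stacked by gene and not corrected for gene length. The maternal stacks reach 674 to 718 CPM in female libraries and 425 to 444 CPM in male ones, and the paternal stacks are mainly Dlk1 and Ndn in female and mainly Peg3 and Ndn in male libraries.

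Imprinted genes beyond the members were also called in both directions. Of 51 such genes 37 were tested, 5 rose, 7 fell and 25 were not called, which is 32.4% called against 18.3% of all tested genes. Their median log2 fold change was -0.13. Of the 27 paternally expressed genes 20 were tested, 2 rose and 4 fell, and of the 24 maternally expressed genes 17 were tested, 3 rose and 3 fell. Imprinting can be limited to certain tissues, as for Dcn below, and whether these genes are imprinted in these cells was not measured. Without male replicate 3 the count of those that fell was 13.

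Those that rose included Peg10, a retrotransposon-derived gene needed for the mouse placenta, at 118 ± 14.2 CPM in female libraries and 27.3 ± 10.8 CPM in male ones (log2 fold change 2.11 ± 0.26, edgeR adjusted p = 0.00034). Rasgrf1, an exchange factor for Ras, averaged 120.0 ± 15.1 CPM in female libraries and 43.6 ± 6.32 CPM in male ones (log2 fold change 1.46 ± 0.14, edgeR adjusted p = 7.87e-05). Cdkn1c, the maternally expressed cell cycle inhibitor p57, had 23, 54 and 39 counts in female libraries, against 7, 3 and 6 counts in male libraries (edgeR adjusted p = 0.00858). It passed the filter through the female libraries only, its call was lost without female replicate 2 (adjusted p = 0.0545), and 30.7% of its exon bases lie opposite Gm44732. The neurabin gene Ppp1r9a rose by 1.35 ± 0.20 on the log2 scale, and Dcn, the decorin gene, which is imprinted in the mouse placenta and is also among the fibroblast markers, by 1.84 ± 0.11 (edgeR adjusted p = 0.000984 and 3.21e-06). Sgce, which shares its start region with Peg10 and is also paternally expressed, was not called (log2 fold change 0.23 ± 0.14, edgeR adjusted p = 0.335).

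Those that fell, apart from Usp29, Zim1, Snrpn and Snhg14, were Nnat, H13 and Igf2r. Nnat, a small proteolipid gene, averaged 1.38 ± 0.236 CPM in female libraries and 3.98 ± 0.771 CPM in male ones (edgeR adjusted p = 0.00478). H13, a signal peptide peptidase, averaged 215 ± 6.12 CPM in female libraries and 341 ± 32.0 CPM in male ones (edgeR adjusted p = 0.00199). Igf2r, the maternally expressed receptor that takes up IGF2 and carries it to lysosomes, had 978, 793 and 756 CPM in female libraries, against 1770, 1662 and 986 CPM in male libraries. Male replicate 3 was close to the highest female library, and the call (log2 fold change -0.81 ± 0.21, edgeR adjusted p = 0.0254) was lost without female replicate 2 or 3 or male replicate 1 or 2. Airn, the antisense RNA at Igf2r, averaged 19.1 ± 2.47 CPM in female libraries and 36.5 ± 16.2 CPM in male ones and was not called (edgeR adjusted p = 0.0552).

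The IGF axis, on which Igf2, Igf2r and Grb10 act, held calls in both directions, 4 of them in genes of IGF binding proteins. Of 21 genes of the axis 18 were tested, 4 rose, 4 fell and 10 were not called, which is 44.4% called against 18.3% of all tested genes. Igf2r, described above, is among those that fell and is counted with the other imprinted genes as well. Without female replicate 3 or male replicate 2 the count of those that fell was 2. Igfbp5 averaged 569 ± 83.2 CPM in female libraries and 29.6 ± 7.96 CPM in male ones, a 19.3-fold rise (log2 fold change 4.26 ± 0.22, edgeR adjusted p = 1.52e-06). Igfbp6, a binding protein that prefers IGF2, rose by 1.31 ± 0.15 on the log2 scale, while Igfbp3 had a log2 fold change of -1.29 ± 0.13 and Igfbp4 of -1.38 ± 0.16 (edgeR adjusted p = 0.000251, 9.71e-05 and 0.000222). Pappa2, a protease that cuts IGF binding proteins, averaged 4.55 ± 0.903 CPM in female libraries and 0.596 ± 0.542 CPM in male ones (log2 fold change 2.87 ± 0.65, edgeR adjusted p = 0.0125). It was over the count filter in every female library but not in every male one. Its call was lost with DESeq2 (adjusted p = 0.0550) and without female replicate 1 (0.0551), and without male replicate 2 the log2 fold change was 3.54. Stc1 rose by 1.09 ± 0.19 on that scale. Igf2bp1, an RNA-binding protein that binds Igf2 mRNA, fell (log2 fold change -1.37 ± 0.36, edgeR adjusted p = 0.0274), a call lost without female replicate 1 or 3 or male replicate 2 (adjusted p up to 0.118). The ligand gene Igf1 averaged 32.3 ± 1.77 CPM in female libraries and 32.2 ± 5.86 CPM in male ones, and the receptor genes Igf1r (log2 fold change 0.21 ± 0.18) and Insr (-0.16 ± 0.19) were not called either.

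**Figure D4:**
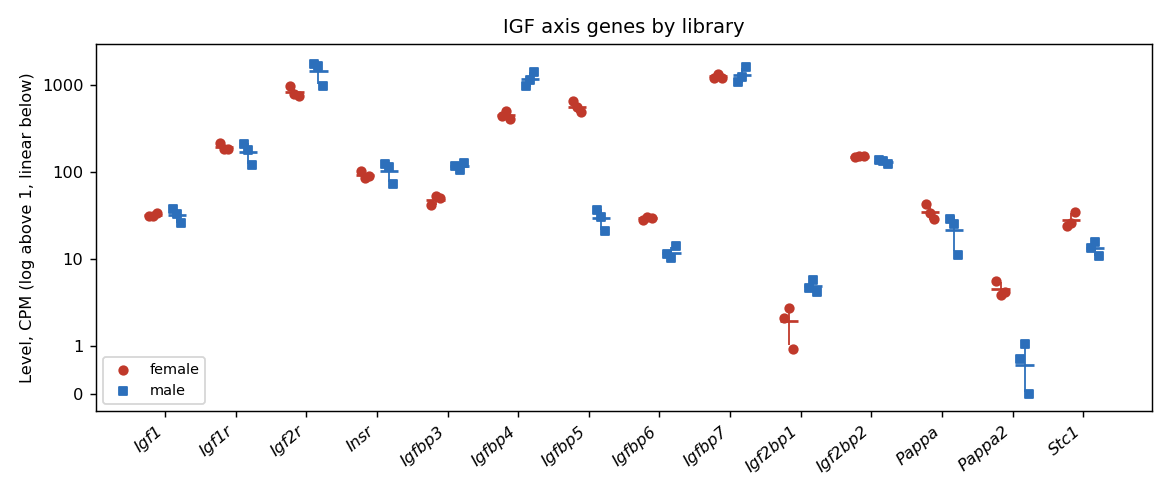
Level in CPM (log scale above 1, linear below) of 14 IGF axis genes in 3 female (circles) and 3 male (squares) libraries, with the mean and ± 1 SD. Igfbp5 and Igfbp6 lie higher in every female library, Igfbp3, Igfbp4 and Igf2r in every male library, and Igf1 and Igf1r overlap.

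Genes listed here as imprint-keeping were called at about the rate of all genes. The list is wider than its name, since it also holds the Dnmt3 and Tet families, which act in setting methylation or oxidising methylcytosine. Of its 16 genes 13 were tested, 1 rose and 1 fell, which is 15.4% called against 18.3% of all tested genes. With limma-voom 2 rose and 3 fell, and without male replicate 3 it was 1 and 3. The maintenance methyltransferase gene Dnmt1 averaged 69.0 ± 4.94 CPM in female libraries and 52.1 ± 3.75 CPM in male ones (log2 fold change 0.40 ± 0.11, edgeR adjusted p = 0.0315), a call lost without any 1 of the female libraries or male replicate 1 or 2. Tet3, an enzyme that oxidises methylcytosine, averaged 32.2 ± 6.19 CPM in female libraries and 54.5 ± 15.6 CPM in male ones (edgeR adjusted p = 0.0407), with overlap between the sexes and the call lost without female replicate 2 or 3 or male replicate 1 or 2. Zfp57, whose protein binds the TGCCGC letters searched above, averaged 24.8 ± 0.173 CPM in female libraries and 23.2 ± 1.76 CPM in male ones, and Ctcf, the insulator protein of the H19 control region, 63.2 ± 2.62 CPM in female libraries and 63.2 ± 1.51 CPM in male ones. Neither was called (edgeR adjusted p = 0.670 and 0.997).

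Genes with the pattern most like 3 members were found by the root mean square distance of centred log2 CPM over the 6 libraries. For H19 these were Actr3b, Atp6v0d2 and Chst8, at distances of 0.118, 0.119 and 0.164 on the log2 scale. Atp6v0d2, a subunit gene of the vacuolar proton pump, averaged 31.2 CPM in female libraries and 2.34 CPM in male ones. Closest to Peg3 were the axon guidance receptor gene Robo1, the adhesion molecule gene Chl1 and Mid2, at 0.0745, 0.0803 and 0.0927. The neighbours of Plagl1 were Pcdhgb4, Nrp2 and Gm10710, at the wider distances of 0.250, 0.273 and 0.274. Pcdhgb4 belongs to a cluster of genes that share exons, and how reads from shared exons were assigned is not stated.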

How the data were processed

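Poly-A RNA-seq of 3 female and 3 male cultures was analysed, grouped by the sex in the sample titles. The authors deposited raw, whole-number read counts for each gene in each library. HISAT2 2.0.5 and featureCounts 1.5 are the tools in the submitters' processing notes. Neither build nor strand setting is given in the sources used here, and the labels' protocol allows a directional or a non-directional library. GENCODE M21 (GRCm38) holds 99.8% of the gene identifiers, 98.3% of them at identical coordinates, and the coordinates printed are the table's own.

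Counts were fitted with edgeR 4.0.16 (R 4.3.3) on the whole table: filterByExpr (minimum count 10), TMM scaling (factors 0.969 to 1.02), robust quasi-likelihood F test, Benjamini-Hochberg adjustment over all tested genes, calls at an adjusted p under 0.05. The fold change is log2 of female over male, with SE as its size divided by the square root of F. CPM use the TMM-scaled totals. The fit was tested on simulated data.

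The members, the gene lists, the alternatives and the naming rule were chosen with earlier results of these data known. All members were named, with the called list genes of smallest p (at most 8 a list), the genes sharing a member's cluster and, for the 3 members with the largest changes, the 3 nearest genes in pattern. Genes named outside this rule (Airn, Sgce, Asb4, Tfpi2, Ascl2, Igf1, Igf1r, Insr, Zfp57 and Ctcf) were chosen after their values were seen. So were the markers Plin4, Fabp4, Adipoq, Lum, Fbln1, Pdgfra, Pdgfrb, Thy1, Krt18, Krt19, Msln and Upk3b. The same holds for the markers Smtn, Acta2, Lmod1, Tagln, Myh11, Cnn1 and Myocd. The fit was repeated with other scalings (RLE, upper quartile), with DESeq2 1.42.0 or limma-voom (limma 3.58.1, quality weights), with no filter or a mean of at least 50 counts, with replicate numbers as a block, with single libraries removed and at a threshold of 0.01. Replicates differed by more than sampling noise (chi-square per degree of freedom 7.87 to 79.8). RefSeq promoter and microRNA tables (GRCm38.p6) gave the sequences, and 9 of 10 members had a promoter.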

Additional observations from a re-analysis of the deposited data

How the results depend on the processing

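H19, Meg3, Grb10, Dlk1, Peg3 and Plagl1 kept their direction and their call under all 13 refits (other scalings, tools, filters, the replicate block and each library left out), and Rian kept its direction under all 13. The call of Rian was lost with RLE scaling (log2 fold change 0.33, adjusted p = 0.0533), with no filter (0.34, adjusted p = 0.0843) and without female replicate 1, 2 or 3 or male replicate 2 (range over all left-out libraries 0.29 to 0.38). The sign of uncalled genes turned for Ndn without male replicate 3 (0.055, range over left-out libraries -0.25 to 0.055), for Mest with limma-voom (-0.13), for Ube3a without male replicate 1 (range -0.33 to 0.11) and for Copg2 without female replicate 3 (-0.00027) or male replicate 2 (range -0.0079 to 0.15). With limma-voom and quality weights 3288 genes were higher and 3283 lower, 11 and 15 other imprinted genes, 8 IGF axis genes higher and 2 and 3 imprint-keeping genes. Rtl1, Dio3 and Mirg were called higher with it too. Over the 13 refits Mirg was called higher in 2 and Ube3a lower in 1. With no filter 7 IGF axis genes were higher. The threshold of 0.01 left 900 and 835 calls over all genes, 2 IGF axis genes lower and 0 and 0 imprint-keeping genes. Leaving out each library gave 967 to 2508 genes higher and 903 to 2543 lower (each highest without male replicate 3), 4 to 7 and 5 to 13 other imprinted genes, 3 to 4 and 2 to 6 IGF axis genes, and 0 to 1 and 0 to 3 imprint-keeping genes. The H19 to Igf2 ratio of male replicate 1 was 8.67 per kb of exon. The cause of these shifts was not tested.

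The replicate numbers share a label and no stated origin: deviations of same-numbered libraries from their group mean correlated at 0.206, -0.00405 and 0.152. Not every library correlated best with its own number, since female replicate 2 was closest to male replicate 3 (0.104). With the replicate block 1619 genes were higher and 1449 lower, 6 members were higher and 1 lower, and 7 IGF axis genes were higher. Depth limits Igf2, Mest and the male level of Plagl1, each resting on few counts.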
